A study of Bos grunniens and Bos grunniens x Bos taurus with 6 samples.

Results

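The 5 genes described here are SYCP1 (ENSBGRG00000006966), SYCP2 (ENSBGRG00000024249), SYCP3 (ENSBGRG00000000767), SMC1B (ENSBGRG00000000470) and HORMAD2 (ENSBGRG00000023195). They were chosen by symbol and are 5 of the 26961 features in the deposited tables, each found once. Their RNA was followed through 6 droplet single-cell libraries (10x Genomics) of testis from yak (Bos grunniens) and from a cattle-yak, the hybrid of yak and domestic cattle (Bos grunniens x Bos taurus). Male cattle-yak do not make sperm. The study asks how cell fate changes as the yak testis develops. Replicates 1 and 2 came from 6-month, prepubertal yak, and replicates 3 and 4 from 18-month yak in adolescence. Replicate 5 came from a sexually mature yak of 4 years, and the last library from a cattle-yak, likewise after sexual maturity. In all groups frozen testis was thawed, digested with enzymes and held in culture medium before loading. The labels call the cells of every library a germ cell line, although the tissue was whole testis, and they do not say whether libraries of the same age came from separate animals. The p-values below therefore measure the spread between these libraries, which may be technical. The 4-year and the cattle-yak group had 1 library each, so no test between them was possible.

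During meiotic prophase, homologous chromosomes are joined along their length by the synaptonemal complex, a zipper-like protein structure. SYCP2 and SYCP3 build its lateral elements on the chromosome axes, and SYCP1 forms the transverse filaments that bridge them. SMC1B is the meiosis-specific SMC1 subunit of the cohesin ring, to which the axes are anchored. HORMAD2 is a HORMA-domain protein that binds axes which have not yet synapsed and takes part in surveillance of synapsis.

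The libraries held between 9575446 UMIs (unique molecular identifiers, which count captured RNA molecules) in the cattle-yak and 24762829 in replicate 3, and 29243 of 40564 barcodes were kept as cells. Any pair of libraries shared between 5 and 16 barcodes. The filter on mitochondrial UMIs took between 2.30% of cells (replicate 1) and 38.0% (replicate 3). Germ cells were gated with marker genes that include none of the 5 genes. The gate asked for at least 5 different germ markers and for more germ UMIs than UMIs of any somatic list. It found 42 and 27 cells in replicates 1 and 2, 452 and 277 in replicates 3 and 4, 1351 in the 4-year yak and 64 in the cattle-yak. Of these, between 7.14% (replicate 1) and 33.3% (replicate 2) had exactly 5 markers, the minimum. A further 40.1% of kept cells passed neither the germ nor a somatic gate. A gate is a range of marker RNA, not a cell type established by other means.

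Germ cells were ordered by which of 4 stage lists led their RNA. In the 4-year library, 198 cells were led by spermatogonium markers such as UCHL1, and 66 by early spermatocyte markers (ZCWPW1, MEIOB, DMC1 and others) with at least 80% of the stage UMIs. Between them lay 54 cells led by the early list with a remainder mostly of spermatogonium markers. A further 90 early-led cells had a remainder mostly of later markers. Late spermatocyte markers led 100 cells with more PIWIL1 and HSPA2, 169 with more CCNA1 and AURKA, and 15 with a tie, and spermatid markers led 659. The gates use the stage lists, so the following values only describe them. In the 4-year library 11 of 11 early markers were detected in the early gate, where they summed to 5870 CPM (counts per 1000000 UMIs of the summed cells), against 1060 CPM in the spermatogonium gate and 382 CPM in spermatids. In that early gate the 7 somatic lists summed to between 2.52 CPM (Leydig) and 50.5 CPM (mural). In spermatids the macrophage list summed to 820 CPM, and the other somatic lists to at most 48.7 CPM.

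In the 4-year yak, RNA of the 5 genes lay mostly in germ cells. Germ-gated cells were 29.6% of kept cells and held 92.8% of SYCP1 UMIs, 92.4% of SYCP2, 96.9% of SYCP3, 92.1% of SMC1B and 90.6% of HORMAD2. Their level in all somatic gates together was 10.1 CPM for SYCP1, 10.8 for SYCP2, 3.59 for SYCP3, 26.6 for SMC1B and 17.6 for HORMAD2, which is between 2.58% and 8.97% of the germ level of the same gene. Free RNA in droplets can give UMIs in cells that do not make a gene, and its part in the somatic level was not tested. In the cattle-yak the somatic level of SYCP1, SYCP3 and SMC1B was between 0.192% and 0.238% of the germ level, that of HORMAD2 1.25% and that of SYCP2 1.58%.

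The lateral element genes differed from each other across the 4-year germ cells. SYCP3 measured 132 CPM in spermatogonium-gated cells (95% Poisson interval 113 to 152), 671 in the cells between the spermatogonium and early lists (592 to 758) and 1747 in early spermatocytes (1619 to 1882). In the cells between the early and late lists it measured 104 CPM (72.9 to 144). It was at 10.4 CPM in the PIWIL1/HSPA2 range (9 UMIs in 100 cells, 4.77 to 19.8), at 4.23 in the CCNA1/AURKA range and at 3.37 in spermatids. The early level was 13.3 times the spermatogonium level (11.3 to 15.7) and 167 times the PIWIL1/HSPA2 level (87.7 to 368). The intervals of the last 2 ranges include the somatic level of 3.59 CPM, and the 66 early cells alone held 55.8% of the SYCP3 UMIs in kept cells.

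SYCP2 kept a level in late cells that SYCP3 did not. It measured 81.2 CPM in spermatogonium-gated cells, 225 between the spermatogonium and early lists, 614 in early spermatocytes (539 to 696), 538 between the early and late lists (463 to 621) and 481 in the PIWIL1/HSPA2 range (436 to 530). The intervals of the last 3 values overlap from each to the next, but the PIWIL1/HSPA2 level was 0.784 times the early level (0.668 to 0.923). It was 87.3 CPM in the CCNA1/AURKA range and 75.0 in spermatids, and these intervals overlap that of the spermatogonium gate. SYCP2 in the PIWIL1/HSPA2 range was 5.51 times its level in the CCNA1/AURKA range (4.59 to 6.64).

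SYCP1, of the transverse filaments, was already present in the spermatogonium gate and was highest in the early gate. It measured 285 CPM in spermatogonium-gated cells (258 to 314) and 264 between the spermatogonium and early lists (215 to 321), a ratio of 0.926 with an interval that spans 1 (0.737 to 1.15). In early spermatocytes it measured 911 CPM (820 to 1011), 3.46 times the level in the range just before (2.76 to 4.35). It was 523 CPM between the early and late lists, 220 in the PIWIL1/HSPA2 range, 33.9 in the CCNA1/AURKA range and 49.6 in spermatids. In the order of ranges SYCP3 thus stood 5.10 times above its spermatogonium level (4.21 to 6.19) in the first transitional range, where SYCP1 did not stand above its own.

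SMC1B, the cohesin subunit, was above its somatic level of 26.6 CPM in every range. Its 4-year levels were 535 CPM in spermatogonium-gated cells (498 to 575), 930 in the range between the spermatogonium and early lists, 1323 in early spermatocytes (1212 to 1441), 913 between the early and late lists, 857 in the PIWIL1/HSPA2 range, 424 in the CCNA1/AURKA range and 142 in spermatids. The early level was 2.47 times that of the spermatogonium gate (2.21 to 2.77), and the 3 values next below it have overlapping intervals.

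HORMAD2 came latest in this order. It measured 30.1 CPM in spermatogonium-gated cells (21.8 to 40.5), 44.4 between the spermatogonium and early lists, 136 in early spermatocytes (102 to 178) and 257 between the early and late lists. Its highest levels were 408 CPM in the PIWIL1/HSPA2 range (367 to 453) and 352 in the CCNA1/AURKA range (326 to 380). In the latter range SYCP1 and SYCP2 were at 33.9 and 87.3 CPM, far below their own early levels. In spermatids it measured 138 CPM. The PIWIL1/HSPA2 level was 2.99 times the early level (2.24 to 4.07). The cells of each range come from 1 library, so all these intervals cover counting error only and say nothing of other animals.

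**Figure D1:**
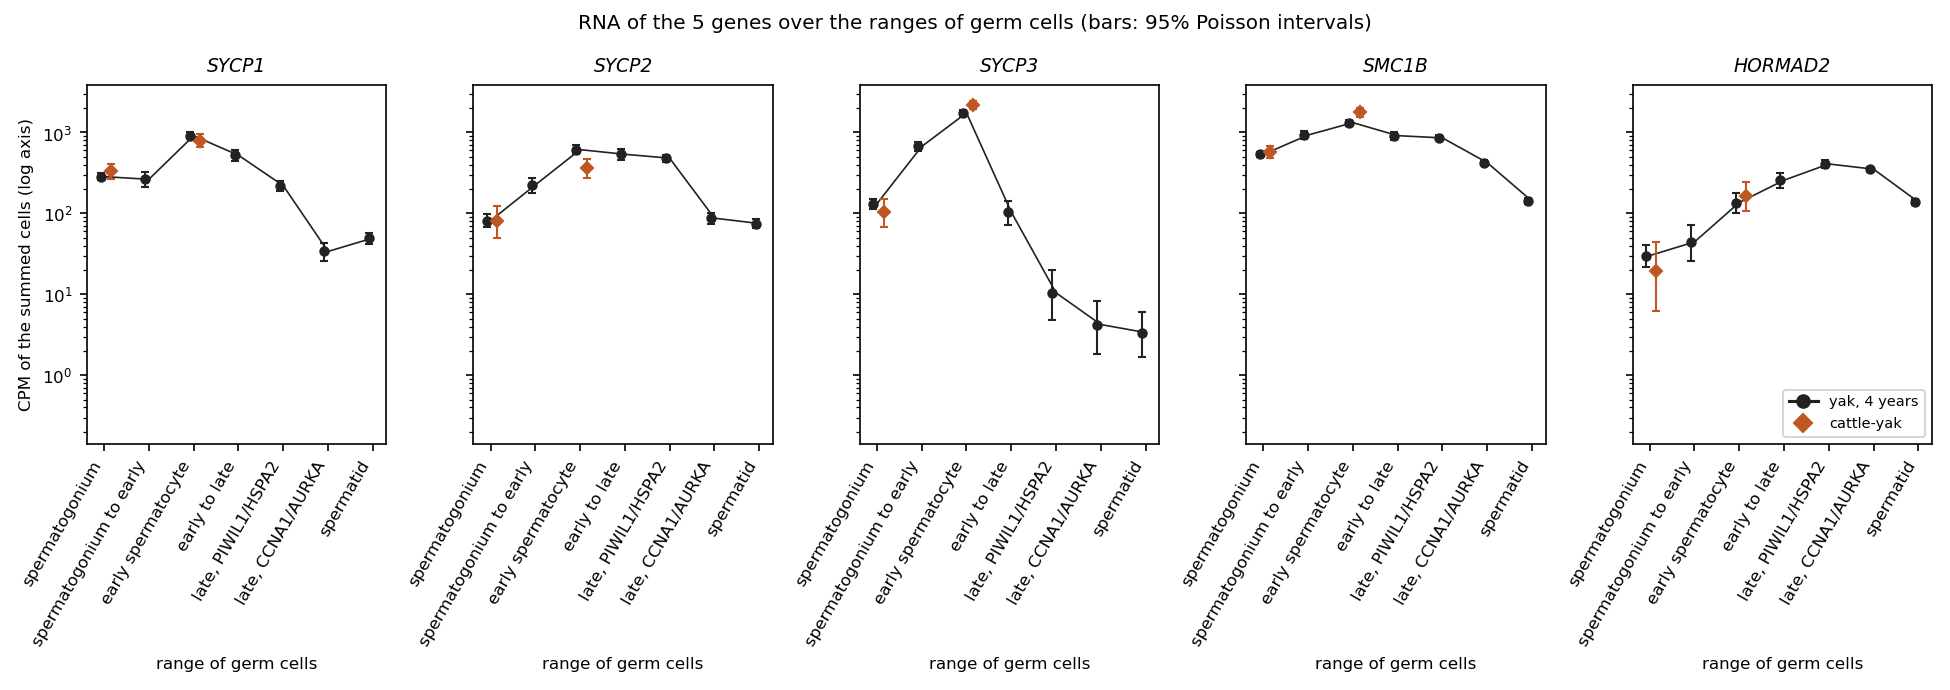
RNA of each gene (CPM of the summed cells, log axis) over 7 ranges of germ cells in the 4-year yak (black circles) and, for ranges of at least 20 cells, in the cattle-yak (orange diamonds), with 95% Poisson intervals as bars. SYCP3 stands at 1747 CPM in the early spermatocytes of the 4-year yak and at 10.4 CPM in the PIWIL1/HSPA2 range, while HORMAD2 is highest in that range, at 408 CPM.

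A finer order was made from the share of the early list in the UMIs of the spermatogonium and early lists, over cells of the first 3 ranges and in steps of 20%. At 4 years SYCP3 measured 71.4, 88.2, 371, 875 and 1708 CPM from the lowest to the highest step, and SMC1B measured 424, 542, 801, 977 and 1304 CPM. SYCP2 measured 54.3, 81.8, 159, 228 and 601 CPM over the same steps. SYCP1 stayed between 258 and 294 CPM over the first 4 steps and measured 886 CPM in the last, and HORMAD2 stayed between 26.4 and 38.1 CPM before 140 CPM in the last. The steps held between 29 and 90 cells. SYCP2, SYCP3 and SMC1B were thus above their lowest step from the middle step on, and SYCP1 and HORMAD2 in the last step.

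Replicate 3, at 18 months, also held cells whose early list led, and in them the genes stood differently. Its range between the spermatogonium and early lists had 81 cells, with SYCP3 at 56.8 CPM (45.1 to 70.7) against 671 in the same range at 4 years. SMC1B measured 325 CPM there against 930, and SYCP2 120 against 225. SYCP1 measured 342 CPM (312 to 374), at or above the 264 of the 4-year cells. The markers that put the cells in this range differed too: TEX15 gave 56.5% of the early-list UMIs in replicate 3 and 6.79% at 4 years, while ZCWPW1 gave 12.2% and 43.5%. Median depth was 13218 UMIs per cell in replicate 3 and 6116 at 4 years. In the step of 60 to 80% early share, SYCP3 measured 82.5 CPM in replicate 3 and 875 at 4 years. These 81 cells are therefore not described as early spermatocytes. Early-gated cells at 18 months numbered 2 and 1, too few for a level. This low number follows in part from the 80% bound, which was set after seeing the data. An earlier form of the rule placed 18-month cells with high TEX15 in the early gate.

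**Figure D2:**
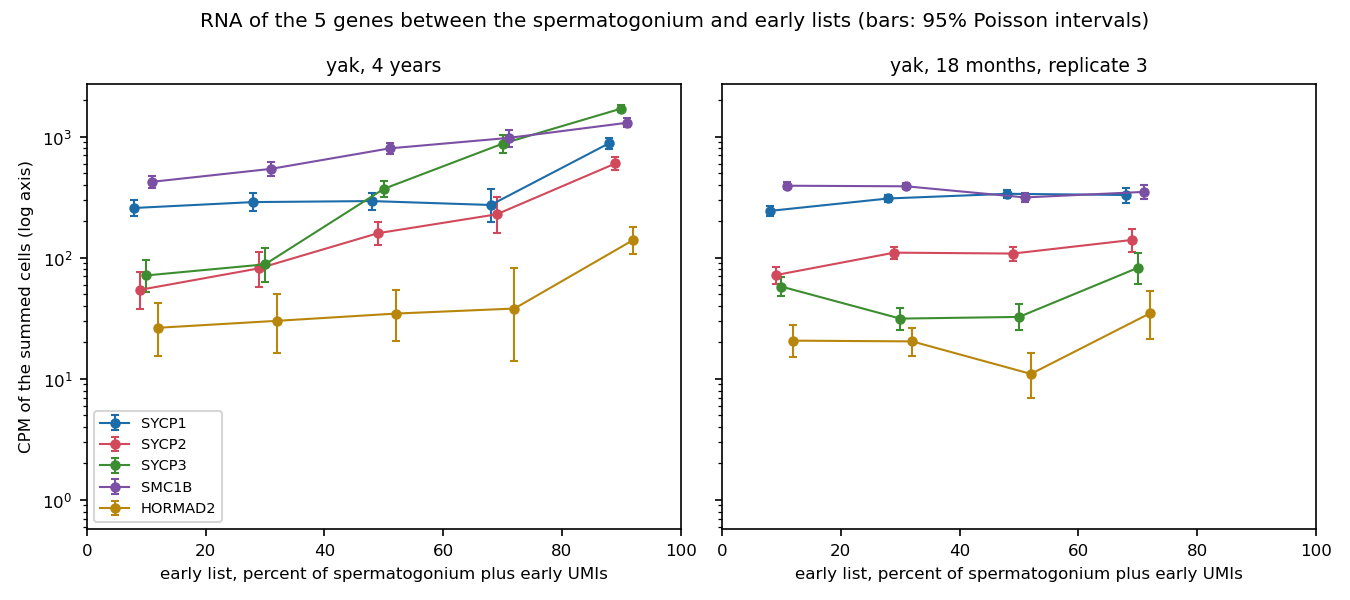
RNA of each gene (CPM, log axis) against the early list's share of the spermatogonium and early UMIs, in steps of 20% that hold at least 20 cells, for the 4-year yak (left) and replicate 3 at 18 months (right), with 95% Poisson intervals as bars. At 60 to 80%, SYCP3 is at 875 CPM on the left and at 82.5 CPM on the right, and the points are shifted sideways by gene so that the bars can be seen.

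Between 6 and 18 months, 4 of the 5 genes rose in counts summed over whole libraries. SYCP1 measured 3.99 and 2.42 CPM in replicates 1 and 2 and 142 and 44.5 CPM in replicates 3 and 4. SYCP2 measured 0.596 and 0.293 CPM, then 48.8 and 15.4 CPM. SYCP3 measured 1.25 and 0.732 CPM, then 20.8 and 18.8 CPM. For these genes both 18-month libraries lay above both 6-month libraries by more than 10-fold. SMC1B measured 4.59 and 5.20 CPM, then 173 and 81.0 CPM. HORMAD2 measured 2.15 and 2.78 CPM, then 8.96 and 4.75 CPM, a smaller gap. These levels are per library total, and the share of all genes without overlap between the ages was not computed.

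On the log2 scale, edgeR's quasi-likelihood test with Benjamini-Hochberg adjustment over 13553 genes gave a rise of 4.94 ± 0.58 (SE) for SYCP2 (adjusted p = 0.0340), 3.66 ± 0.50 for SYCP1 (adjusted p = 0.0354), 3.58 ± 0.37 for SMC1B (adjusted p = 0.0340) and 3.30 ± 0.49 for SYCP3 (adjusted p = 0.0370). The difference of HORMAD2, 0.39 ± 0.40, did not pass (adjusted p = 0.593). Of all genes tested, 2.58% passed in either direction (252 higher, 97 lower at 18 months) 1.86% as higher and 0.716% as lower. The TMM factors of the 2 ages differed by 1.03 on the log2 scale. With library totals 2956 genes were higher, 21.8% of those tested, and 87 lower. HORMAD2 then stood at 1.48 ± 0.75 (adjusted p = 0.148, same test). Without replicate 2 or without replicate 3, 0 of the 5 passed and 0 of all genes passed, while the 4 differences stayed between 2.91 and 4.46 (unadjusted p between 0.000117 and 0.00245, edgeR). Without replicate 1 SYCP2 alone passed (adjusted p = 0.0371, edgeR), and without replicate 4 the same 4 passed.

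The germ share of UMIs rose in whole libraries, as did SYCP1, SYCP2, SYCP3 and SMC1B, while HORMAD2 had a smaller ratio. Germ-gated cells gave 1.59% and 1.10% of the UMIs of kept cells in replicates 1 and 2, and 44.8% and 19.1% in replicates 3 and 4, a log2 ratio of mean shares of 4.57. The log2 ratio of mean CPM was 4.86 for SYCP1, 6.17 for SYCP2, 4.32 for SYCP3, 4.70 for SMC1B and 1.48 for HORMAD2. In whole-library counts alone more germ cells and more RNA per germ cell cannot be told apart. Within germ-gated cells the log2 ratio of mean CPM was 0.453 for SYCP1, 2.11 for SYCP2, 0.0535 for SYCP3, 0.237 for SMC1B and 1.20 for HORMAD2. At 6 months SYCP2 rested there on 9 and 1 UMIs and HORMAD2 on 3 and 1. These ratios carry no TMM scaling and were not tested.

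Within the spermatogonium gate, 0 of the 5 genes passed the same test, where 3.51% of 8499 genes passed (156 higher, 142 lower) and 1.84% passed as higher. This gate held 42 and 27 cells in the 6-month libraries and 367 and 269 cells in the 18-month libraries. SYCP1 measured 224 and 146 CPM, then 291 and 204 CPM, and the groups overlap (log2 difference 0.18 ± 0.41, adjusted p = 0.863, edgeR). SMC1B measured 243 and 385 CPM, then 377 and 374 CPM (0.08 ± 0.40, adjusted p = 0.945, edgeR). SYCP3 measured 67.3 and 53.1 CPM, then 39.8 and 81.0 CPM, so its highest and lowest values were both at 18 months (-0.20 ± 0.51, adjusted p = 0.876, edgeR). HORMAD2 rested on 3 and 1 UMIs at 6 months, 11.2 and 6.64 CPM, against 19.1 and 21.9 CPM (0.90 ± 0.82, adjusted p = 0.570, edgeR).

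SYCP2 stood nearest to the threshold within spermatogonium-gated cells. Replicate 1 had 9 UMIs, 33.7 CPM (15.4 to 63.9), and replicate 2 had 1 UMI, 6.64 CPM (0.168 to 37.0). Replicate 3 stood at 97.4 CPM (89.9 to 105) and replicate 4 at 72.5 CPM (62.7 to 83.4). Both 18-month libraries were above both 6-month libraries, with a log2 difference of 1.67 ± 0.59 (unadjusted p = 0.00494, adjusted p = 0.0779, edgeR). The share of all genes in this gate without overlap between the ages was not computed, so the lack of overlap is a description. DESeq2 called 0 of the 5 genes (HORMAD2 had no adjusted p), and by either tool 1 of the 5, SYCP2, had an unadjusted p below 0.05. With library totals in place of TMM SYCP2 passed at 1.90 ± 0.59 (adjusted p = 0.0308, edgeR), and it also passed without replicate 4 (adjusted p = 0.0113, edgeR). Library totals gave 447 genes higher and 124 lower in this gate, and DESeq2 gave 67 and 99.

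Over the 6 libraries the spermatogonium gate gave SYCP1 levels from 146 CPM (replicate 2) to 330 CPM (cattle-yak), SYCP2 levels from 6.64 CPM (replicate 2) to 97.4 CPM (replicate 3), SYCP3 levels from 39.8 CPM (replicate 3) to 132 CPM (4 years), SMC1B levels from 243 CPM (replicate 1) to 576 CPM (cattle-yak) and HORMAD2 levels from 6.64 CPM (replicate 2) to 30.1 CPM (4 years). The 4-year and cattle-yak values have overlapping intervals for every gene. The 4-year SMC1B value (498 to 575) lies above both 18-month intervals (362 to 392 and 351 to 398), and so does that of SYCP3 (113 to 152 against 35.0 to 45.0 and 70.6 to 92.5). Early-list markers in the gate summed to 684, 598, 898, 810 and 1060 CPM in replicates 1 to 5 and to 1159 CPM in the cattle-yak. Sertoli markers in it summed to 310, 405, 302, 334 and 85.4 CPM in replicates 1 to 5 and to 142 CPM in the cattle-yak. The part of either in these levels was not tested.

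**Figure D3:**
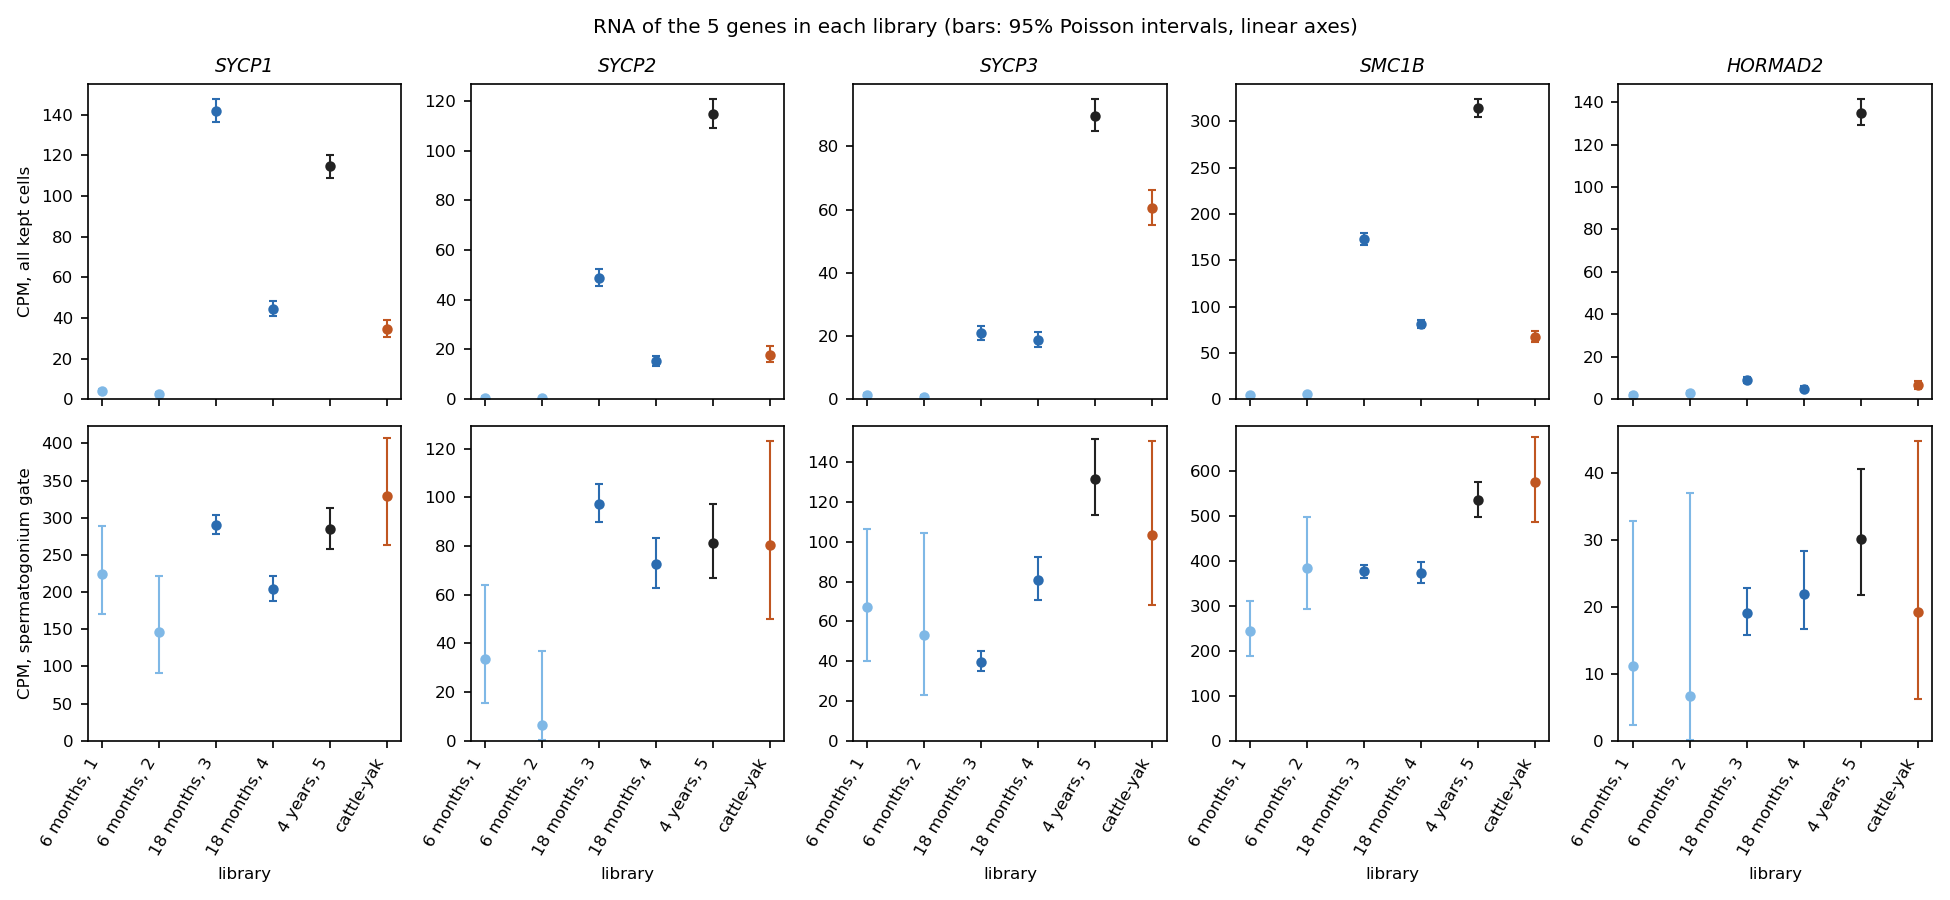
RNA of each gene (CPM, linear axes from 0) in each of the 6 libraries, over all kept cells (top row) and within the spermatogonium gate (bottom row), with 95% Poisson intervals as bars. Over all cells SYCP2 stands at 0.596 and 0.293 CPM in the 6-month libraries and at 48.8 and 15.4 CPM in the 18-month ones, and within the gate at 33.7 and 6.64 against 97.4 and 72.5 CPM.

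In the cattle-yak the 5 genes were present in every range of germ cells that held cells, except HORMAD2, with 0 UMIs in the 5 cells between the spermatogonium and early lists. Of its 64 germ-gated cells, 34 were in the spermatogonium gate, 5 between the spermatogonium and early lists, 20 in the early gate and 5 between the early and late lists. The late and spermatid ranges held 0 cells, which allows a share of up to 4.69% each by the limit of 3 counts (exact 95% upper bound 5.60%). The 5 cells between the early and late lists had 31 UMIs of SYCP1, 25 of SYCP2, 14 of SYCP3, 29 of SMC1B and 9 of HORMAD2 (221 CPM, 101 to 419). They are too few to compare with the 4-year yak. The 20 early cells had 321 SYCP3 UMIs, 68.2% of the SYCP3 UMIs in kept cells, and a median of 5804 UMIs per cell against 4904 in the 66 early cells of the 4-year yak.

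SYCP3 was also the gene with the highest early-to-spermatogonium ratio in the cattle-yak. It measured 104 CPM in the spermatogonium gate and 2205 CPM in the early gate (1971 to 2460), 21.3 times as much (14.4 to 32.8). SYCP1 measured 330 and 790 CPM, a ratio of 2.39 (1.80 to 3.20). SMC1B measured 576 and 1766 CPM, a ratio of 3.07 (2.50 to 3.78). All 5 genes were higher in the early gate than in the spermatogonium gate, beyond counting error, as they were in the 4-year library. SYCP2 measured 80.6 and 364 CPM, a ratio of 4.52 (2.68 to 7.89), and HORMAD2 19.2 and 165 CPM, a ratio of 8.59 (3.21 to 28.8) from 5 and 24 UMIs.

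Between the early gates of the cattle-yak and the 4-year yak, SYCP2 was lower in the hybrid, and SYCP3 and SMC1B were higher. SYCP2 measured 364 CPM (273 to 476) against 614 (539 to 696), a ratio of 0.593 (0.432 to 0.802). SYCP3 measured 2205 against 1747 CPM, a ratio of 1.26 (1.10 to 1.44), and SMC1B 1766 against 1323 CPM, a ratio of 1.33 (1.15 to 1.55). The ratio of SYCP1 was 0.867 (0.696 to 1.07) and that of HORMAD2 1.21 (0.715 to 1.99), and both intervals span 1. In the spermatogonium gate all 5 intervals span 1, from 0.638 for HORMAD2 (0.197 to 1.61) to 1.16 for SYCP1 (0.907 to 1.47).

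These ratios moved with the bounds of the early gate. With an early share of 67% in place of 80% the ratio of SYCP3 was 1.65, and over all cells led by the early list it was 2.11 (1.88 to 2.37). Over all such cells SYCP1 stood at 1.25 (1.05 to 1.49), on the other side of 1, and SYCP2 at 0.845 (0.666 to 1.06), with an interval that spans 1. SMC1B stayed between 1.32 and 1.37 under every gate tried and stood at 1.62 per cell. Near the 80% bound, 34 cells of the 4-year yak and 4 of the cattle-yak had 70 to 80%, and 27 and 7 had 80 to 90%. Within the early gate the summed late-spermatocyte markers measured 217 CPM at 4 years (7 of 8 detected) and 89.3 CPM in the cattle-yak (6 of 8), spermatid markers 179 and 20.6 CPM, and spermatogonium markers 162 and 316 CPM. Stroma markers measured 5.05 and 89.3 CPM. The part of these in the ratios was not tested, and a hybrid difference cannot be told apart from a difference between 2 libraries.

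**Figure D4:**
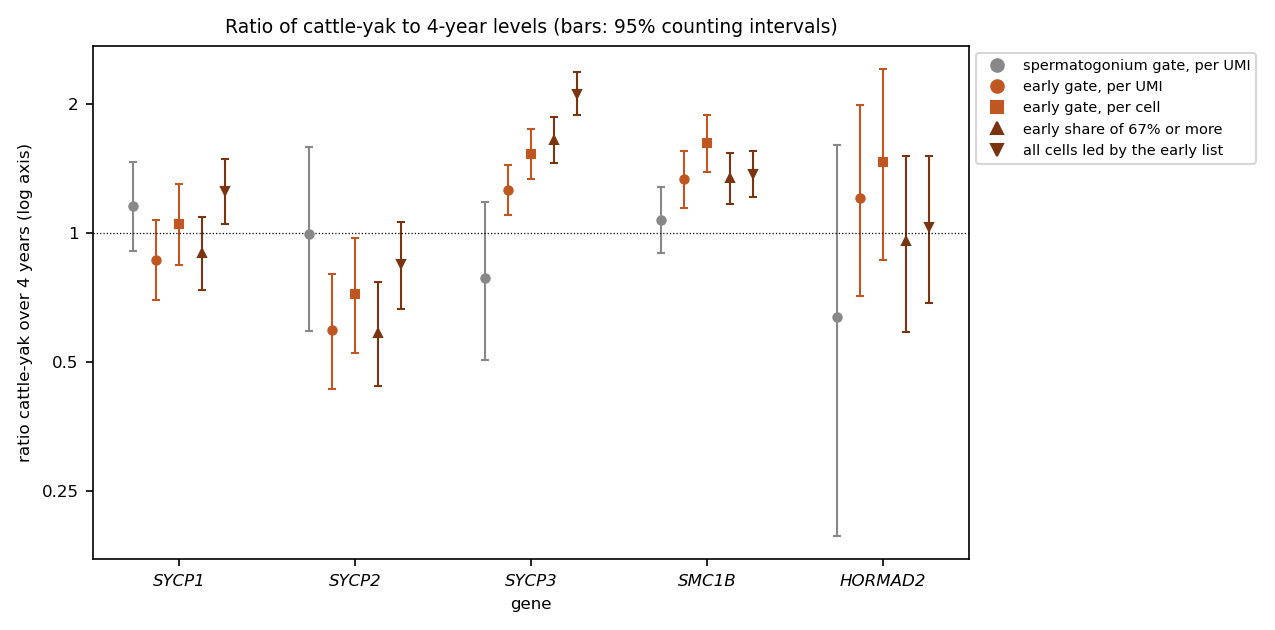
Ratio of the cattle-yak level to the 4-year level (log axis, dotted line at 1) for each gene in the spermatogonium gate and in the early gate under 4 definitions, with 95% counting intervals as bars. SYCP2 stands at 0.593 and SYCP3 at 1.26 in the early gate, and SYCP3 reaches 2.11 when all cells led by the early list are used.

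Counted per cell, the early gate had the highest mean number of the 5 genes among the ranges with a value. With each cell thinned to 1000 UMIs, early spermatocytes of the 4-year yak held on average 2.28 of the 5 genes (60 cells deep enough) and those of the cattle-yak 2.42 (19 cells). Spermatogonium-gated cells held 0.463, 0.630, 0.671, 0.579 and 0.810 in replicates 1 to 5 and 1.06 in the cattle-yak. In the 4-year library the ranges before and after the early gate held 1.56 and 1.38, the PIWIL1/HSPA2 range 1.29, the CCNA1/AURKA range 0.748 and spermatids 0.375. At least 3 of the 5 were held by 40% of thinned early cells of the 4-year yak and 42.1% of those of the cattle-yak, against 22.2% in the range before it, the next highest at 4 years. Without thinning, 24 of the 66 early cells of the 4-year yak held all 5, as did 8 of the 20 early cells of the cattle-yak.

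SYCP3 UMIs were seen in 78.8% of the early cells of the 4-year yak and 95% of those of the cattle-yak, or 53.3% (exact 95% interval 40.0 to 66.3) and 73.7% (48.8 to 90.9) after thinning, and the intervals overlap. Its share among somatic cells was 0.752% at 4 years (median 1639 UMIs) and 0.409% in the cattle-yak (median 1625 UMIs). SMC1B was seen in 70.0% (56.8 to 81.2) and 73.7% (48.8 to 90.9) of thinned early cells, from 87.9% and 90% before thinning. SYCP1 was seen in 53.3% and 52.6% and SYCP2 in 45.0% and 31.6% of thinned cells, from 81.8% and 90%, and 80.3% and 70.0%, before thinning. HORMAD2 was seen in 6.67% and 10.5% of thinned cells, from 45.5% and 40.0%. No share differed between the early gates beyond its interval at this depth. Each thinned share comes from a single random draw of UMIs, and the intervals leave out the spread between such draws.

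At 6 months HORMAD2 lay mostly outside germ-gated cells. Of its 36 and 38 UMIs in kept cells, 3 and 1 lay in germ-gated cells, 14 and 13 in the Sertoli gate (the somatic nurse cells of the tubules) and 17 and 24 in ungated cells. Its Sertoli level was 3.24 CPM (1.77 to 5.43) in replicate 1 and 5.50 CPM (2.93 to 9.41) in replicate 2, from 13 of 1022 and 12 of 649 cells. The other somatic gates held 2 and 0 HORMAD2 UMIs together in the 2 libraries, of which 1 was stromal, in 2769 and 1555 stroma cells. The other 4 genes had 3 and 0 UMIs in the same Sertoli cells, all of them SMC1B. Germ-gated cells held 65 and 58 UMIs of SMC1B and 3 and 1 of HORMAD2. The part of free RNA in these counts was not tested. The small Sertoli gates of the mature animals, with 30 and 88 cells, held 4 and 2 HORMAD2 UMIs, beside 4 and 1 of SMC1B. At 18 months the Sertoli gate held 0 HORMAD2 UMIs in 148 cells and 1 in 933 cells (0.186 CPM), beside 2 and 26 of SMC1B. Germ markers of any stage summed to 3.47 and 3.39 CPM in the 6-month Sertoli gate, and Sertoli markers to 6952 and 12483 CPM.

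SYCP2 had small counts among lymphocyte-gated cells of 3 libraries. It measured 8.83 CPM in the cattle-yak (11 UMIs, 4.41 to 15.8), where SYCP1 and HORMAD2 had 0 UMIs and SMC1B 5. Germ cells of that library held 247 UMIs of SYCP1, 108 of SYCP2, 443 of SYCP3, 478 of SMC1B and 38 of HORMAD2. SYCP3 had 9 UMIs there over all somatic gates together. In replicate 3 SYCP2 measured 8.55 CPM (4.27 to 15.3), beside 3 UMIs of SYCP1 and 13 of SMC1B. In the 4-year yak it measured 15.6 CPM, beside 8 UMIs of SYCP1 and 27 of SMC1B. The part of free RNA in these counts was not tested. Replicates 1, 2 and 4 had 1, 0 and 0 SYCP2 UMIs in this gate. In the macrophage gate SYCP2 had 4 UMIs in 65 cells at 4 years (41.1 CPM, 11.2 to 105) and 1 UMI in replicate 4 (9.27 CPM), its highest somatic levels in those libraries. This was not particular to SYCP2: in the same gate SYCP1 measured 51.4 CPM at 4 years and SMC1B 18.5 CPM in replicate 4. Spermatid-gated cells of the 4-year library also held macrophage-list RNA, and the part of germ cells in the macrophage gate was not tested.

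Partner genes of synapsis and cohesion were read from 6 fixed lists with 55 names, of which 39 were in the files. The ranges compared at 4 years are the 7 plotted for the members, without the 15 tied cells, where SYCE1 measured 854 CPM (623 to 1143), REC114 551 CPM (369 to 791) and SPDYA 380 CPM (232 to 586), above the highest levels given below but with overlapping intervals. Among the 7 ranges, 3 of the 5 synaptonemal complex partners with at least 20 UMIs were highest in the early gate: the central element genes TEX12 (1111 CPM, against 458 in the spermatogonium gate) and SYCE2, which was named after its values were seen, and C14orf39 (366 against 113 CPM), whose product also belongs to the central element. SYCE1, also of the central element, was highest in the CCNA1/AURKA range at 681 CPM and still at 405 CPM in spermatids, and so was SYCE1L at 440 and 394 CPM. Among axis partners HORMAD1, the paralog of HORMAD2, was highest in the early gate at 250 CPM, where HORMAD2 was not, and REC114, a factor of break formation, in the PIWIL1/HSPA2 range at 499 CPM.

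The meiotic cohesin partners were placed around the peak of SMC1B. REC8, the meiotic kleisin, measured 52.5 CPM in the spermatogonium gate, 188 CPM between the spermatogonium and early lists and 2.52 CPM (1 UMI) in the early gate. STAG3, the meiotic SA subunit, and SGO2, a protector of centromeric cohesin, were highest in the early gate at 78.3 and 386 CPM. SMC3, the partner of SMC1B in the ring and shared with mitotic cohesin, was highest between the spermatogonium and early lists at 1102 CPM and measured 93.9 CPM in the PIWIL1/HSPA2 range. RAD21, the mitotic kleisin, was highest in the spermatogonium gate at 115 CPM. Of the telomere genes TERB2 and SPDYA were highest in the PIWIL1/HSPA2 range, at 416 and 335 CPM, and TERB1 between the early and late lists at 292 CPM.

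In the early gate of the cattle-yak most of the named partners had intervals that overlap those of the 4-year yak. TEX12 measured 1106 against 1111 CPM, C14orf39 350 against 366, SYCE1 344 against 316, HORMAD1 330 (243 to 437) against 250 (203 to 304), STAG3 96.2 against 78.3 and SGO2 330 against 386. ANKRD31, a partner of REC114, measured 453 CPM (351 to 577) against 205 (162 to 254), TERB1 433 (333 to 554) against 265 (217 to 321) and SMC3 1127 (961 to 1313) against 765 (681 to 856), without overlap. SPDYA, an activator of CDK2 at telomeres, was lower in the cattle-yak at 82.4 CPM (42.6 to 144) against 187 (147 to 235). At 4 years ANKRD31 and SMC3 were highest between the spermatogonium and early lists (303 and 1102 CPM). TERB1 was highest between the early and late lists (292 CPM) and SPDYA in the PIWIL1/HSPA2 range (335 CPM). The part of the mix of stages in these differences was not tested. Nor were the partners recomputed under other bounds of the early gate. With 1 library per group, a hybrid difference cannot be told apart from a difference between libraries.

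Between 6 and 18 months 7 of 39 tested partner genes rose in whole libraries and 0 fell, where 1.86% of all genes rose and 0.716% fell, with a median log2 difference of 1.24 beside -0.04 over all genes. They were DMRT1 and RBM46 of the meiotic entry list, REC114 and ANKRD31 of the axis list, C14orf39, STAG3 and TERB1. DMRT1 is also a marker of the spermatogonium gate. Their differences ran from 2.84 ± 0.34 for REC114 to 4.79 ± 0.89 for STAG3 (adjusted p between 0.0340 and 0.0487, edgeR). Of the 12 mitotic cohesin genes and regulators tested 0 passed, with a median of 0.63. Without replicate 2 or without replicate 3, 0 of the lists' genes passed.

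Within the spermatogonium gate 3 of 34 rose and 0 fell, where 1.84% of all genes rose and 1.67% fell, with a median of 0.71 beside 0.11 over all genes. They were DMRT1 (1.73 ± 0.45, adjusted p = 0.0131, edgeR), RBM46 (1.52 ± 0.46, adjusted p = 0.0378, edgeR) and the cohesin loader NIPBL (1.59 ± 0.47, adjusted p = 0.0355, edgeR). DMRT1 is a marker of this gate, so its call is not independent of how the cells were chosen. Over replicates 1 to 4 in order, DMRT1 measured 63.6, 120, 282 and 383 CPM, RBM46 82.3, 59.8, 221 and 258 CPM, and NIPBL 89.8, 26.6, 265 and 177 CPM. The 5 synaptonemal complex partners tested had a median of -0.98 and 0 passed. Without replicate 1 or without replicate 2, 0 of the 34 passed, and with 1 marker more in the gate 0 passed.

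The genes whose levels followed each member most closely were ranked by Pearson's r of log2(CPM + 1) over 50 sums of at least 20 cells, each of 1 library and gate, among 10864 genes. The sums share libraries and the contrast of germ with somatic cells, so r is a description. SYCP1 was followed by RNF17 (r = 0.960), TDRD9, STK31, DMRTC2 and SPATA22, and SMC1B by RNF17 (0.951), SPATA22, PSMA8, DMRTC2 and TUBA3D. SYCP2 was followed by PSMA8 (0.943), a testis-specific proteasome subunit, and by HSPA4L, XKR9, SPATA22 and RBM46. SYCP3 was followed by SEC11C (0.929), DNAJC7, H3-4, GML and MEI1, none of which follows another member among its first 5. HORMAD2 was followed by the central element gene SYCE1 (0.950), then NSG2, PRSS45P, ZPBP and CPT1B. RNF17, TDRD9, SPATA22 and MEI1 are markers of the gates. Among the members SYCP1 and SMC1B were most alike (0.958) and SYCP3 and HORMAD2 least (0.688).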

How the data were processed

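Per the file headers, the deposited matrices are raw counts of UMIs, made by the authors with Cell Ranger (5.0.0 there, 2.1.1 per the submitters' processing notes). No source used here names the genome build. 0 identifiers matched the RefSeq table, so no positions or sequences are printed.

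Barcodes under 300 detected genes or above 20% mitochondrial UMIs were removed. Scrublet's own threshold marked 269 and 181 barcodes at 6 months and at most 1 elsewhere, so doublets were removed by score rank, at 0.8% per 1000 barcodes (208 to 640 barcodes, scanpy 1.11.5). Of 121 fixed markers in 14 lists, 90 were in the files. Germ cells needed 5 germ markers and somatic cells 2 markers of 1 list with fewer than 5 germ markers. The scoring rule was set after seeing the data, and the members and lists were chosen with earlier results of these data known.

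Counts were summed per library and gate. Only 6 against 18 months has replicates. It was tested with edgeR 4.0.16 (R 4.3.3; quasi-likelihood, TMM, filterByExpr, Benjamini-Hochberg over all genes, adjusted p below 0.05) and, as an alternative, DESeq2 1.42.0. The edgeR fit was also run on simulated counts with a fixed dispersion and changes in either direction, where the sign of the change was checked. Those counts held no shift in scaling between the ages, so they do not show the error rates of the test in these libraries. The SE of an edgeR difference was computed as its absolute value divided by the square root of the test's F statistic. Other values carry exact Poisson, conditional binomial or Clopper-Pearson intervals (95%), which cover counting error only. Shares of cells were also computed after thinning each cell to 1000 UMIs by a single random draw. Named genes were the 5 members, list genes that passed or were among the 4 of a list with the highest CPM summed over the 6 whole libraries, and the 5 genes most correlated with each member. Other alternatives were the filters, doublets, gates, scaling, samples in the fit and leaving out each replicate.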

Additional observations from a re-analysis of the deposited data

How the results depend on the processing

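Of 246 values recomputed under alternatives, 183 kept their direction and their side of the threshold (or stayed within error), in 30 a gene lost its call or a count of calls fell by over 1.5 times, in 16 a gene gained a call or a count rose by as much, 13 moved and 4 reversed. The cause was not tested in any of these. No paired analysis was possible because the ages share no replicate numbers.

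In whole libraries the number of genes that passed was 3043 with library totals, 1356 with DESeq2, 2206 with no filter on low counts and 226 with all 6 libraries in the fit, and the fixed lists gave 26, 13 and 18 genes under the first 3 of these. In the spermatogonium gate it was 571 with library totals, 166 with DESeq2, 147 with doublets kept and 34 with 1 marker more, and the lists gave 7 with library totals, 1 with doublets kept and 0 with 1 marker more. Of the 5 genes 1 passed there with library totals, SYCP2 at 1.90.

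Leaving out 1 replicate (the lone library is then assumed to vary like the others) gave 0 to 2401 genes in whole libraries, 0 to 17 list genes and 0 to 4 of the 5 genes. The count of 0 came without replicate 2 (2088 genes with an unadjusted p below 0.05, edgeR) and without replicate 3 (2273). The log2 differences ran from 3.18 to 4.07 for SYCP1, 4.46 to 5.55 for SYCP2, 2.91 to 3.75 for SYCP3, 3.45 to 3.75 for SMC1B and 0.19 to 0.49 for HORMAD2. In the spermatogonium gate they gave 58 to 773 genes, 0 to 8 list genes and 0 to 1 of the 5, with -0.034 to 0.68 for SYCP1, 1.20 to 3.60 for SYCP2, -0.75 to 0.26 for SYCP3, -0.093 to 0.51 for SMC1B and 0.75 to 1.56 for HORMAD2, which was filtered out without replicate 3 or 4. The reversals were SYCP1 without replicate 3 (-0.034), SYCP3 without replicate 1 (0.16) or 3 (0.26) and SMC1B without replicate 1 (-0.093).

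The early-gate ratio of cattle-yak to 4-year yak was 1.25 for SYCP1, 0.845 for SYCP2 and 2.11 for SYCP3 over all early-led cells, 1.65 for SYCP3 at a share of 67%, and 1.53 for SYCP3 and 1.62 for SMC1B per cell. Thinned to 500 UMIs, the early cells with a UMI were 33.3% for SYCP1, 25.8% for SYCP2, 36.4% for SYCP3 and 45.5% for SMC1B at 4 years and 10% for SYCP2 in the cattle-yak. With 1 marker more, and cells thinned by a new random draw, SYCP3 was seen in 67.3% and SMC1B in 54.5% at 4 years. That gate kept 691 of the 692 SYCP3 UMIs and 515 of the 524 SMC1B UMIs. These shares are therefore not read as an effect of the gate, and the part of the new draw was not tested. Depth limits HORMAD2 and SYCP2 most, with 3 and 1 and 9 and 1 UMIs in the 6-month spermatogonium gate.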
